A study of Homo sapiens with 4 samples.

Results

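The genes described here are 7 members of 3 paracrine signalling systems: the growth factor HGF and its receptor MET, the chemokines CXCL14 and CXCL12, and the platelet-derived growth factor PDGFA with the receptors PDGFRA and PDGFRB. They were chosen by name, with earlier results of these data known, as 7 of the 23364 genes listed over the 4 tables. They were followed in every cell with at least 500 detected genes. UMIs (unique molecular identifiers) mark each captured transcript, so amplified copies count once. All 7 had rows in the tables of hESC 2, blastoid 3 and blastoid 4, and 6 had rows in that of hESC 1, where HGF was missing and was read as 0.

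In paracrine signalling one cell secretes a ligand and a neighbour carries its receptor. HGF is secreted mainly by mesenchyme as an inactive precursor and acts on epithelium through the receptor tyrosine kinase MET, driving growth, scattering and tube formation. In many embryonic tissues PDGFA runs the other way, from epithelium to mesenchyme, where PDGFRA and PDGFRB control the growth and migration of mesenchymal cells. CXCL12 guides migrating cells through the receptor CXCR4 and is scavenged by ACKR3, and CXCL14 is a chemokine of epithelia and stroma whose receptor is still debated.

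All cells derived from the established human embryonic stem cell line KhES1 and were profiled with 10x Genomics Chromium 3′ libraries. The 2 stem cell samples (hESC 1 and hESC 2) were kept in mTeSR-1 medium on Matrigel. The 2 blastoid samples (blastoid 3 and blastoid 4) came from aggregates of these cells, which were formed in Aggrewell plates, embedded in a PNIPAAm and PEG hydrogel, held in serum-containing medium and then fed with iBlastoid medium. Blastoids are stem cell aggregates meant to model the blastocyst. All samples share 1 cell line and no label names separate cultures, so p-values measure the spread between these samples, which may be technical. The titles of all 4 samples carry the same day while the blastoid tables carry a later one, so the descriptions of the samples gave the groups.

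The kept cells numbered 2238 in hESC 1, 3175 in hESC 2, 2278 in blastoid 3 and 1916 in blastoid 4, with a median of 4996 to 8798 UMIs per cell and totals of 13255214 to 17679447 UMIs per sample. Barcodes recurred between samples of a group: 1317 were in both hESC tables and 1035 in both blastoid tables. Of the kept cells, 52.71% in blastoid 4 and 41.26% in hESC 2 carried such a barcode, against 0 in blastoid 3 and 1.162% in hESC 1. In blastoid 4 they were the deeper cells. The edgeR tests and the levels by class were also computed without them, while the shares of cells with a UMI and the same-cell shares were not.

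Clustering without the members and their pathway genes gave 10 clusters. In the blastoids, 76.95% and 60.44% of cells (blastoid 3 and blastoid 4) were mesoderm/mesenchyme-like, 19.45% and 33.87% were trophectoderm/amnion-like epithelium, and 3.292% and 5.01% were pluripotent-like. The mesenchyme class held 3 clusters: cluster 1, led by TECRL, PRPH, TMEM88 and PRRX1 (1166 and 933 cells), cluster 5, led outside the members by SST, MGP, POSTN and LRRN3 (388 and 185 cells), and cluster 7, led by MESP1 and MSGN1 (199 and 40 cells). Only 5 and 12 cells were endothelial-like. No cluster was named hypoblast/endoderm-like, as at most 1 of that list's 11 measured markers was found in 10% of the cells of any cluster. In the hESC samples 92.58% and 91.59% of cells were pluripotent-like, and the rest fell in a shallow cluster left unnamed.

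MET and CXCL12 had the same leading class in blastoids, the epithelium, and their promoter windows are printed for that reason. Each is the 250 bases before the single RefSeq start in the promoter table (GRCh38.p14), 5′ to 3′ on the gene's strand. MET is at chr7:116671946-116672195 on the plus strand and CXCL12 at chr10:44385098-44385347 on the minus strand. Capitals mark every match to 6 motifs searched on both strands, which were the TATA box TATAAA, the AP-1 site TGANTCA, the E-box CANNTG, the CCAAT box CCAAT, the GC box GGGCGG and the GATA site AGATAA.
MET: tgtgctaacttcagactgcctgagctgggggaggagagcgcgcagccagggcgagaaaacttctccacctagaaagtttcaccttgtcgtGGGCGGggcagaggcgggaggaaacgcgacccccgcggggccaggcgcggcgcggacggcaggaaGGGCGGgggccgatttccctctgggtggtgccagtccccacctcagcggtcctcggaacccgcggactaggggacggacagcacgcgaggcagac
CXCL12: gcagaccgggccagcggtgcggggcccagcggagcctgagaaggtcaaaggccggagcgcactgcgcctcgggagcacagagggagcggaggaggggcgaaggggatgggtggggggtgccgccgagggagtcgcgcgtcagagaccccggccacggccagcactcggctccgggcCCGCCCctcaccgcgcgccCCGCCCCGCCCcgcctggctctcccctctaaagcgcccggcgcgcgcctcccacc
The only matches were GC boxes, 2 in MET and 3 in CXCL12, the latter including 2 that overlap, and 42.64% of the 35116 promoter windows of this length held at least 1. Both windows were rich in CpG, with 24 in MET and 31 in CXCL12 against a median of 11 over all windows. The windows of the mesenchymal ligands HGF and CXCL14, of which GENCODE 29 places 158 and 250 bases in exons, are not printed. HGF had 6 CpG and no match to any of the 6 motifs. CXCL14 had 25 CpG, 4 GC boxes and 1 AP-1 match 92 bases before its start, and 6.573% of windows held an AP-1 match. These matches describe the letters of the windows and were not measured as binding sites.

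Between the groups, 6 members were higher in blastoids and 1, PDGFA, was lower by the edgeR quasi-likelihood test on UMIs summed per sample, with Benjamini-Hochberg adjustment over all 16332 genes tested. This test called 49.9% of all genes, 27.1% as higher and 22.8% as lower in blastoids, so a call by itself sets no member apart. It called 8157 genes in all, but 4896 without hESC 1 and 5114 without hESC 2. For every member both blastoid samples lay on the same side of both hESC samples. The share of all tested genes that did so is not given here, so this sets no member apart either. Cells of different types are mixed in these sums, so fewer cells of a type and less RNA per cell cannot be told apart there. Levels by class follow for each member and for part of the other listed genes. CPM below is UMIs per 1000000 over the kept cells of a sample or class, with exact Poisson 95% intervals in brackets that cover counting error only.

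**Figure D1:**
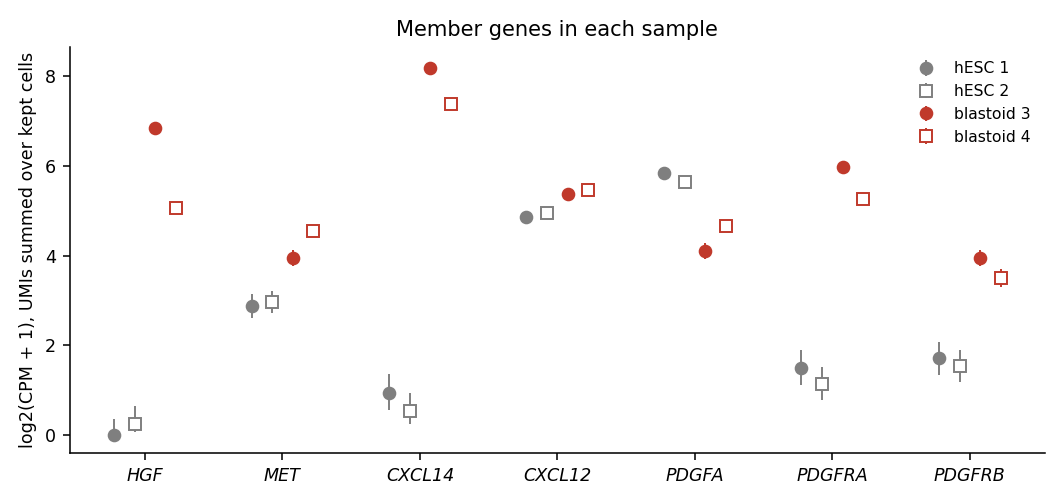
Level of each member in each sample as log2(CPM + 1), with circles and squares for the first and second sample of a group, hESC in grey, blastoids in red, and bars for exact Poisson 95% intervals. HGF, CXCL14 and PDGFRA lie far higher in both blastoid samples, PDGFA lies lower, and CXCL12 differs least.

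HGF (chromosome 7, 81699008 to 81770438, minus strand, GRCh38) was close to absent in the stem cells and present in both blastoid samples. Its level was 0 CPM in hESC 1, 0.1885 in hESC 2, 113.9 in blastoid 3 and 32.47 in blastoid 4, from 0, 3, 1720 and 574 UMIs. The blastoid level was 680.3-fold higher over both samples of a group, with an exact interval of 232.5 to 3301 (adjusted p = 0.000305, edgeR). The fitted log2 fold change was 9.22 ± 0.96 (SE), and it was 8.14 without blastoid 3, 8.40 without hESC 1, 9.80 without blastoid 4 and 13.06 without hESC 2. The last leaves no HGF UMI in the hESC group and so depends on the prior count. The 2 blastoid samples differed from each other beyond counting error, and neither overlapped the hESC samples.

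Nearly all HGF came from the mesenchyme. Its class level was 149.5 CPM (142.5 to 156.7) in blastoid 3 and 55.86 (51.35 to 60.66) in blastoid 4, against 1.325 and 1.116 in trophectoderm/amnion-like cells, from 4 and 7 UMIs. The mesenchyme held 99.77% and 98.43% of all HGF UMIs. Within it the level followed the cluster: cluster 5 reached 537.1 and 256.2 CPM, whereas clusters 1 and 7 lay between 20.56 and 45.03 and overlapped each other. Cluster 5 held 77.33% and 67.25% of the sample's HGF UMIs. With cells thinned to 2000 UMIs, 15.01% and 8.436% of mesenchyme cells and 0 of the 391 and 633 epithelial cells had an HGF UMI, the latter with exact upper limits of 0.939% and 0.5811%. Median depth in the mesenchyme and epithelium was close, at 6184 and 6338 UMIs in blastoid 3 and 8400 and 9106 in blastoid 4.

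MET (chromosome 7, 116672390 to 116798386, plus strand) encodes the HGF receptor and was highest in the epithelium. Whole samples gave 6.337 CPM in hESC 1, 6.849 in hESC 2, 14.43 in blastoid 3 and 22.46 in blastoid 4, a log2 fold change of 1.37 ± 0.26 (SE, adjusted p = 0.00445, edgeR). By class the blastoid samples were alike, with 59.95 CPM (51.53 to 69.35) and 58.82 (52.97 to 65.14) in trophectoderm/amnion-like cells. The epithelium was 9.061- and 8.89-fold above the hESC samples and held 83.03% and 92.95% of MET UMIs, while making up 19.45% and 33.87% of cells. Pluripotent-like blastoid cells, at 5.255 and 10.25 CPM from 3 and 12 UMIs, did not differ from hESC beyond counting error. Mesenchyme was lowest at 2.962 and 1.582 CPM, which was 0.4476 and 0.2391 times the hESC level. Among the 388 and 185 cells of cluster 5, where HGF was highest, 2 MET UMIs were found in each sample.

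CXCL14 (chromosome 5, 135570679 to 135579279, minus strand) was concentrated in 1 mesenchymal cluster. It gave 0.9053 CPM in hESC 1, 0.4399 in hESC 2, 291.5 in blastoid 3 and 165.1 in blastoid 4, from 12, 7, 4404 and 2919 UMIs. The log2 fold change was 8.29 ± 0.39 (SE, adjusted p = 1.27e-05, edgeR), and the groups lay far apart. Cluster 5 alone reached 1680.0 and 1831.0 CPM and held 94.44% and 94.48% of all CXCL14 UMIs, with 17.03% and 9.656% of the sample's cells. The neighbouring mesenchymal cluster 1 had 20.37 and 9.911 CPM, which overlapped the 22.85 and 10.68 CPM of the epithelium. Neither CXCL14 nor HGF had been among the genes clustered, but both were chosen with earlier results of these data known. Within the mesenchyme CXCL14 set cluster 5 apart. Even there it was uneven: 229 of 388 and 92 of 185 cells had a UMI, with a median of 11 and 13.5 UMIs in those cells and a maximum of 224 and 206. The 39 and 19 cluster 5 cells with the most CXCL14 UMIs held 52.56% and 62.8% of them, and for HGF the same numbers of cells held 45.49% and 51.04%.

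CXCL12 (chromosome 10, 44370165 to 44386493, minus strand) differed little between whole samples and widely between blastoid classes. The samples gave 27.99 CPM in hESC 1, 30.1 in hESC 2, 40.18 in blastoid 3 and 43.1 in blastoid 4. The log2 fold change of 0.39 ± 0.14 (SE) had an adjusted p of 0.0496 in edgeR and was not called by DESeq2 (adjusted p = 0.141), without doublet removal (0.0545), with at least 1000 genes per cell (0.0589), or without hESC 1 (0.306), hESC 2 (0.228) or blastoid 4 (0.0941). By class the order was clear: epithelium at 170.6 CPM (156.2 to 186.0) and 107.4 (99.48 to 115.9), pluripotent-like cells at 31.53 and 27.32, and mesenchyme at 6.446 and 5.537. The pluripotent-like level overlapped that of the hESC samples. Epithelium stood 5.854- and 3.687-fold above hESC, and mesenchyme at 0.2212 and 0.19 times hESC. The epithelium held 84.84% and 88.45% of CXCL12 UMIs. Cluster 5, the CXCL14 cluster, was the lowest mesenchymal cluster for CXCL12, with 5 and 2 UMIs in all.

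PDGFA (chromosome 7, 497258 to 520296, minus strand) was the member that fell. It gave 56.13 CPM in hESC 1, 48.89 in hESC 2, 16.15 in blastoid 3 and 24.27 in blastoid 4, a log2 fold change of -1.49 ± 0.23 (SE, adjusted p = 0.00168, edgeR), with no overlap. The fall was not shared by all blastoid cells. Pluripotent-like blastoid cells had 77.07 CPM (56.0 to 103.5) and 94.78 (77.97 to 114.1). These levels were 1.477-fold (1.069 to 1.993) and 1.816-fold (1.484 to 2.204) that of both hESC samples summed, with intervals for counting error only. In blastoid 3 the interval of these pluripotent-like cells overlapped that of hESC 1 (52.17 to 60.31). Most of these cells were in cluster 8 (55 and 88 cells), which held no hESC cell, while those of the hESC samples were in clusters 0, 3 and 4, so different clusters stand behind the class in the 2 groups. Epithelium had 43.06 and 40.65 CPM. Mesenchyme had 6.098 and 6.229 CPM, or 0.1169 and 0.1194 times the hESC level. Although pluripotent-like cells had the highest level, they were few, and the epithelium held most PDGFA UMIs, at 53.28% and 59.44%. Cluster 7, with its nascent mesoderm genes MESP1 and MSGN1, was intermediate at 13.62 and 25.27 CPM, while clusters 1 and 5 lay between 1.991 and 5.995.

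**Figure D2:**
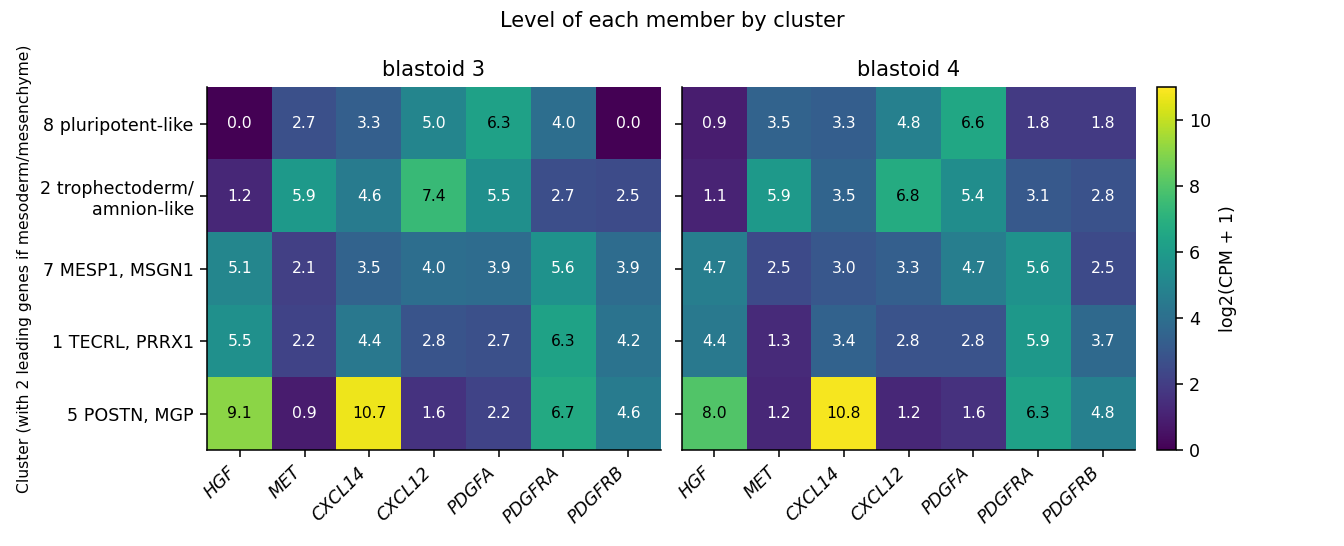
Level of each member as log2(CPM + 1) in the 5 blastoid clusters with at least 40 cells in each blastoid sample, 1 panel per sample, with darker colours for lower levels. HGF and CXCL14 peak in cluster 5, MET and CXCL12 in the epithelial cluster 2, PDGFA in cluster 8 and PDGFRA across clusters 1, 5 and 7.

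PDGFRA (chromosome 4, 54229097 to 54298247, plus strand), the receptor that binds PDGFA, was near absent in stem cells and broad in blastoid mesenchyme. Samples gave 1.811 CPM in hESC 1, 1.194 in hESC 2, 61.89 in blastoid 3 and 37.27 in blastoid 4, a log2 fold change of 4.92 ± 0.31 (SE, adjusted p = 3.5e-05, edgeR), with no overlap. Mesenchyme had 79.27 CPM (74.2 to 84.59) and 60.11 (55.43 to 65.08), which was 14.96- and 8.198-fold above the epithelium. Unlike HGF and CXCL14 it spread over the 3 mesenchymal clusters, with 100.2 and 76.99 CPM in cluster 5, 78.93 and 57.63 in cluster 1 and 47.36 and 48.25 in cluster 7. The ranges of clusters 5 and 1 overlapped between samples. Which cluster was highest depended on the clustering. At Leiden resolution 1.0 it was not the HGF and CXCL14 cluster but another, at 156.4 and 121.3 CPM with 14.12% and 18.36% of PDGFRA UMIs. The same held with 15 principal components (154.7 and 142.9 CPM) and with at least 1000 genes per cell (154.5 and 122.7 CPM). Cluster 1, being the largest, held 589 of 935 and 471 of 659 PDGFRA UMIs.

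PDGFRB (chromosome 5, 150113837 to 150155872, minus strand), the other PDGF receptor and a marker of perivascular and mesenchymal cells, rose with a smaller contrast between classes. Samples gave 2.263 CPM in hESC 1, 1.885 in hESC 2, 14.5 in blastoid 3 and 10.35 in blastoid 4, a log2 fold change of 2.45 ± 0.25 (SE, adjusted p = 0.000277, edgeR). Mesenchyme had 17.86 CPM (15.5 to 20.48) and 14.14 (11.92 to 16.65), only 3.851- and 2.464-fold above the epithelium. Cluster 5 was highest at 23.02 and 26.55 CPM, cluster 1 had 17.02 and 12.36, and the 13.62 and 4.595 CPM of cluster 7 rest on 21 and 2 UMIs. At Leiden resolution 1.0 and with at least 1000 genes per cell, PDGFRB was highest in a different cluster from HGF. The intervals of epithelium (4.637 and 5.739 CPM) and of the few pluripotent-like cells (0 and 4 UMIs) overlapped in both samples.

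The low levels in the class without the gene stand beside those of other genes. The 17 mesenchyme markers summed to 4989.0 and 3951.0 CPM in the mesenchyme and to 821.1 and 904.5 in the epithelium, where 17 and 16 of them had UMIs. The 16 trophectoderm/amnion markers summed to 4386.0 and 4921.0 CPM in the epithelium and to 1210.0 and 1415.0 in the mesenchyme, with UMIs of all 16. The part of free RNA or of doublets in the minor levels of CXCL14, PDGFRA and PDGFRB in epithelium, and of MET, CXCL12 and PDGFA in mesenchyme, was not tested.

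**Figure D3:**
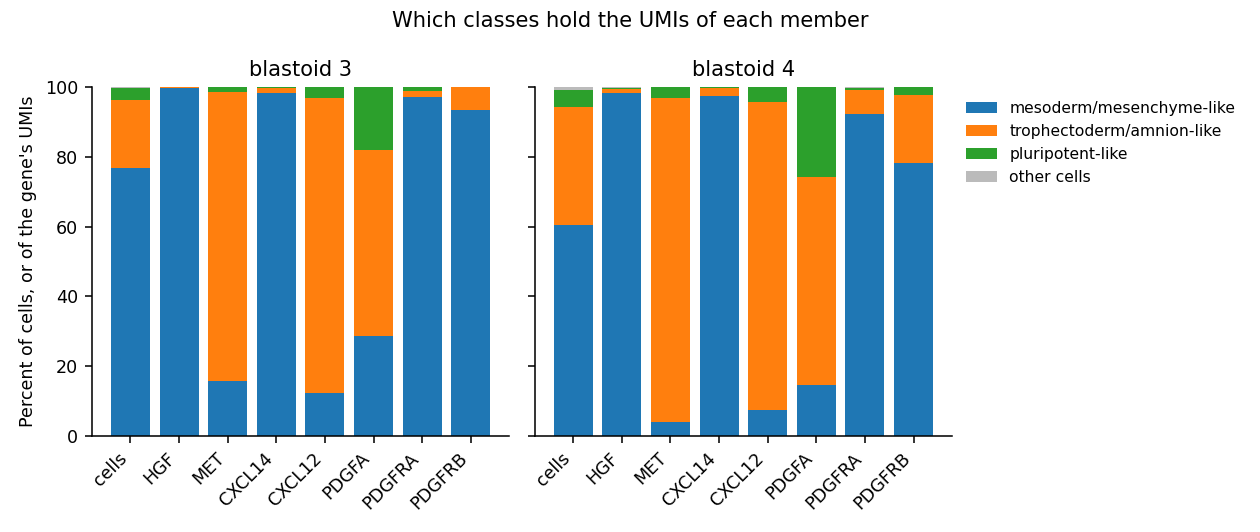
Percent of kept cells (first bar) and percent of each member's UMIs held by each class, for blastoid 3 and blastoid 4, as stacked bars from 0 to 100. Mesenchyme holds at least 97.36% of HGF and CXCL14 UMIs and epithelium at least 83.03% of MET and CXCL12 UMIs, against 76.95% and 19.45% of cells in blastoid 3.

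Across samples, the share of cells with a UMI moved in the same directions as the levels for 6 members. With each cell thinned to 2000 UMIs, the mean share went from 0.0227% ± 0.03211 in hESC to 8.528% ± 4.74 in blastoids for HGF, and from 0.1009% ± 0.01419 to 8.095% ± 4.052 for CXCL14 (SD, n = 2 samples). PDGFRA went from 0.2395% ± 0.2103 to 9.647% ± 2.776 and PDGFA from 10.07% ± 1.594 to 3.237% ± 0.9306. The exact two-sided permutation test gave p = 0.33 for these 4, MET and PDGFRB, the smallest value that 2 samples against 2 can give. CXCL12 stayed at 5.213% ± 0.07778 and 5.976% ± 1.285 (exact p = 1.0), with overlapping groups, and at 4000 UMIs per cell its difference was -1.983 points in place of 0.7625.

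Ligand and receptor were then sought in the same cell, in blastoid cells thinned to 2000 UMIs, with exact binomial 95% intervals. Among the 70 and 58 cells with a MET UMI, 2 and 0 had HGF, a share of 2.857% (0.3479 to 9.943) and 0% (upper limit 6.162). Cells without MET had HGF in 12.18% (10.82 to 13.66) and 5.341% (4.353 to 6.477). The intervals of the 2 kinds of cell did not overlap in blastoid 3 and did in blastoid 4. At 4000 UMIs per cell they overlapped in neither sample. The shares were then 5.556% (2.066 to 11.7) against 16.5% (14.82 to 18.29) in blastoid 3. In blastoid 4 they were 0% (upper limit 2.798) against 7.844% (6.6 to 9.239). This contrast over all cells repeats the difference between classes. Inside the mesenchyme of blastoid 3, HGF was in 2 of 11 MET-positive cells, or 18.18% (2.283 to 51.78), against 14.99% of MET-negative cells, so no separation was seen there. At 4000 UMIs per cell these shares were 23.81% and 20.04%.

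PDGFA and PDGFRA were seldom detected in the same cell, but both were sparse at this depth. PDGFA was found in 2 of 252 and 1 of 144 PDGFRA-positive cells, or 0.7937% (0.09626 to 2.837) and 0.6944% (0.01758 to 3.808). Cells without PDGFRA had it in 2.814% (2.121 to 3.656) and 4.162% (3.27 to 5.213). The pairs of intervals overlapped at this depth. At 4000 UMIs per cell PDGFA was in 3.226% (1.729 to 5.453) of PDGFRA-positive and 5.712% (4.6 to 6.999) of other cells of blastoid 3. In blastoid 4 the shares were 1.992% (0.6499 to 4.587) and 8.586% (7.238 to 10.09), and only there did the intervals not overlap. The mean share in PDGFRA-positive cells was 2.609% at 4000 UMIs, against 0.744% at 2000. None of the 62 and 33 PDGFRB-positive cells held PDGFA, with upper limits of 5.776% and 10.58%. At 4000 UMIs, however, 4 of 113 and 6 of 79 did, or 3.54% and 7.595% against 5.295% and 7.67% of PDGFRB-negative cells, so PDGFA and PDGFRB did not separate at that depth. Inside the mesenchyme, PDGFA was in 1 of 245 and 0 of 134 PDGFRA-positive cells against 0.9498% and 0.996% of the others, with overlapping intervals. There the 4000-UMI shares ran in opposite directions in the 2 samples, with 3.053% against 2.063% in blastoid 3 and 1.288% against 2.927% in blastoid 4.

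HGF and CXCL14, the ligands of cluster 5, went together within that cluster. In cluster 5, HGF was found in 54.36% (47.09 to 61.49) of CXCL14-positive and 34.74% (27.99 to 41.97) of CXCL14-negative cells of blastoid 3, and in 46.38% (34.28 to 58.8) and 24.14% (16.68 to 32.96) in blastoid 4. The intervals did not overlap in either sample, at equal depth. In cluster 1 the shares were 13.33% and 6.143% in blastoid 3 and 0% and 3.911% in blastoid 4, with overlapping intervals. At Leiden resolution 1.0 the cluster highest for both genes was smaller, with 332 and 125 cells. It held 93.85% and 92.05% of CXCL14 UMIs but 67.15% and 52.26% of HGF UMIs. Whether a mix of cell states inside cluster 5 gives its contrast was not tested. CXCL14 with PDGFRA in cluster 5 gave 60.61% against 48.59% and 48.28% against 35.26%, with overlapping intervals. In the largest mesenchymal cluster, cluster 1, HGF was in 2.5% of PDGFRA-positive and 6.96% of PDGFRA-negative cells of blastoid 3, and in 1.98% and 4.064% in blastoid 4, again with overlap. PDGFRA and PDGFRB showed no pattern shared by the samples, as PDGFRB was in 2.778% of PDGFRA-positive and 2.866% of other cells in blastoid 3 but in 5.556% (2.429 to 10.65) and 1.445% (0.9373 to 2.126) in blastoid 4.

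**Figure D4:**
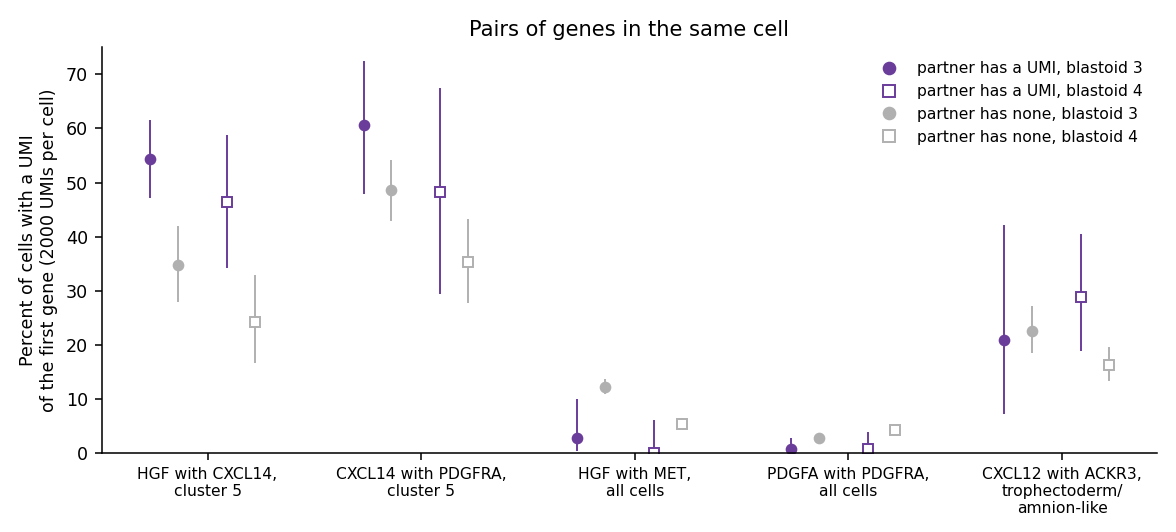
Percent of cells with a UMI of the first gene, among cells with (purple) and without (grey) a UMI of the second, at 2000 UMIs per cell, with exact binomial 95% intervals, circles for blastoid 3 and squares for blastoid 4. HGF is more frequent in CXCL14-positive cells of cluster 5 in both samples, while HGF in MET-positive and PDGFA in PDGFRA-positive cells stays below 3%.

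The other genes of the 3 systems came from lists of 37 genes, of which 27 passed the filter on low counts. Of these, 7 were higher in blastoids, 10 were lower and 10 were not called. Over all genes tested, 27.1% were higher and 22.8% were lower, and no set test was run. The median log2 fold change was 0.35 against 0.05 over all genes tested. Without hESC 1, 11 of the listed genes were called.

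In the HGF and MET list 1 of 12 tested genes was higher and 5 were lower, with a median of -0.36. That is 6 of 12 called, close to the 49.9% called over all genes tested, so the count is no result about this list. The riser was PLAT, tissue plasminogen activator, a protease able to cleave pro-HGF (log2 fold change 3.66 ± 0.19, adjusted p = 1.49e-05, edgeR). It was mesenchymal, with 63.39 and 77.21 CPM in cluster 1 and 3.975 and 2.869 in the epithelium. The membrane proteases that activate HGF, ST14 (matriptase) and HPN (hepsin), were low in mesenchyme and higher in both the epithelium and the pluripotent-like cells. ST14 gave 24.51 and 40.97 CPM in the epithelium, 19.27 and 29.03 in pluripotent-like cells and 0.268 and 1.101 in cluster 1, and was not called between groups (log2 fold change 0.05 ± 0.44). HPN gave 17.22 and 14.35 in the epithelium, 10.51 and 14.52 in pluripotent-like cells and 2.144 and 2.325 in cluster 1. Pluripotent-like hESC cells had 11.26 and 9.055 CPM of HPN. Over whole samples HPN fell by 0.75 on the log2 scale (adjusted p = 0.0315, edgeR).

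The inhibitors of these proteases were also lowest in mesenchyme. SPINT1 had 101.0 and 121.6 CPM in the epithelium, 78.82 and 74.29 in pluripotent-like cells and 14.74 and 16.03 in cluster 1. SPINT2 had 278.6 and 343.2, 154.1 and 193.0, and 38.06 and 48.58 in the same order. SPINT2 fell over whole samples (log2 fold change -1.11 ± 0.27, adjusted p = 0.0126, edgeR). The epithelium did not share this fall, as pluripotent-like hESC cells had 266.1 and 244.5 CPM of SPINT2. Also lower over whole samples were 3 regulators that dampen receptor kinases: LRIG1, CBL and PTPRJ. LRIG1 went from 52.72 and 58.99 TMM-scaled CPM in hESC to 1.953 and 2.473 in blastoids (log2 fold change -4.65 ± 0.19, adjusted p = 7.8e-06, edgeR). Pluripotent-like blastoid cells had 12.26 (4.93 to 25.26) and 8.539 (4.095 to 15.7) CPM of LRIG1, against 50.18 and 58.18 in pluripotent-like hESC cells. CBL in the same order was 80.57 (58.99 to 107.5) and 48.67 (36.86 to 63.06) against 69.41 and 70.25. PTPRJ rested there on 3 UMIs in each blastoid sample.

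In the chemokine list 2 of 8 tested genes were higher and 4 were lower, with a median of -1.37, beside 27.1% and 22.8% of all genes. The receptors of CXCL12 were the risers. ACKR3, its scavenging receptor, had 0, 3, 323 and 655 UMIs in hESC 1, hESC 2, blastoid 3 and blastoid 4, a ratio of 290.0 (98.95 to 1409) with an adjusted p of 8.25e-05 in edgeR. CXCR4, its signalling receptor, rose by 2.53 ± 0.36 on the log2 scale (adjusted p = 0.00121, edgeR) but stayed low, at 3.052 and 3.26 TMM-scaled CPM. ACKR3 was in both compartments, with 27.16 and 56.27 CPM in the epithelium, 50.48 and 79.65 in cluster 5 and 12.73 and 21.17 in cluster 1. CXCR4 was at 7.27 and 13.27 CPM in cluster 5 and at 1.656 and 1.275 in the CXCL12-rich epithelium. In that epithelium CXCL12 was in 20.83% of ACKR3-positive and 22.62% of ACKR3-negative cells of blastoid 3, and in 28.77% and 16.25% in blastoid 4, with overlapping intervals.

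The 4 chemokine genes that fell were CXCL3, CXCL5 and CXCL6, attractants of neutrophils, and CXCR2, their receptor. CXCL5 went from 20.99 and 15.44 TMM-scaled CPM in hESC to 0.9156 and 1.799 in blastoids (log2 fold change -3.72 ± 0.32, adjusted p = 0.000126, edgeR). Its fall was not shared by all blastoid cells. Pluripotent-like blastoid cells had 12.26 (4.93 to 25.26) and 15.37 (9.109 to 24.29) CPM, against 19.76 and 14.77 in pluripotent-like hESC cells. Mesenchyme had 0.4356 and 0.7909 CPM. CXCL3 in pluripotent-like cells was 8.758 and 8.539 CPM in blastoids against 11.8 and 9.569 in hESC. CXCL6 there was 5.255 and 1.708 CPM, from 3 and 2 UMIs, against 9.346 and 10.02. CXCR2 had 18 and 14 UMIs in the hESC samples and 0 in both blastoid samples, so no fold is given. CXCL8, CXCL10 and CXCR3 were not analysed here.

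In the PDGF list 5 of 9 tested genes were higher and 1 was lower, with a median of 1.43, beside the same shares of all genes. NRP1, a co-receptor, had no row in either hESC table and gave 73.86 and 54.41 TMM-scaled CPM in blastoids (adjusted p = 1.54e-05, edgeR). Most of its UMIs were in clusters 1 and 5, at 75.74 to 130.8 CPM. The few endothelial-like cells had a higher level, 213.1 (85.67 to 439.0) and 192.5 (122.0 to 288.8) CPM, from 7 and 23 UMIs. FURIN, a convertase that cuts PDGFA out of its precursor, rose by 2.20 ± 0.15, and SPARC, a matrix protein that binds PDGF, rose by 1.75 ± 0.13 on the log2 scale. The other risers were PLAT, shared with the HGF list, and PDGFC, at 1.43 ± 0.29, which is activated by PLAT. PDGFD fell by 0.81 (adjusted p = 0.0388, edgeR).

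PDGFB, the ligand that binds PDGFRB most strongly, was not called between groups (log2 fold change 0.39 ± 0.25, adjusted p = 0.235, edgeR). In blastoids it kept to the epithelium: 63 and 57 UMIs there gave 20.87 and 9.086 CPM, while clusters 1 and 5 held 0 PDGFB UMIs in either sample. PDGFA and PDGFB were both higher in epithelium than in the clusters with the most PDGFRA and PDGFRB. PDGFC also leaned to the epithelium, at 9.605 (6.433 to 13.79) and 5.26 (3.621 to 7.388) CPM against 4.094 (3.008 to 5.445) and 3.559 (2.493 to 4.927) in the mesenchyme, but the intervals overlapped in blastoid 4.

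**Figure D5:**
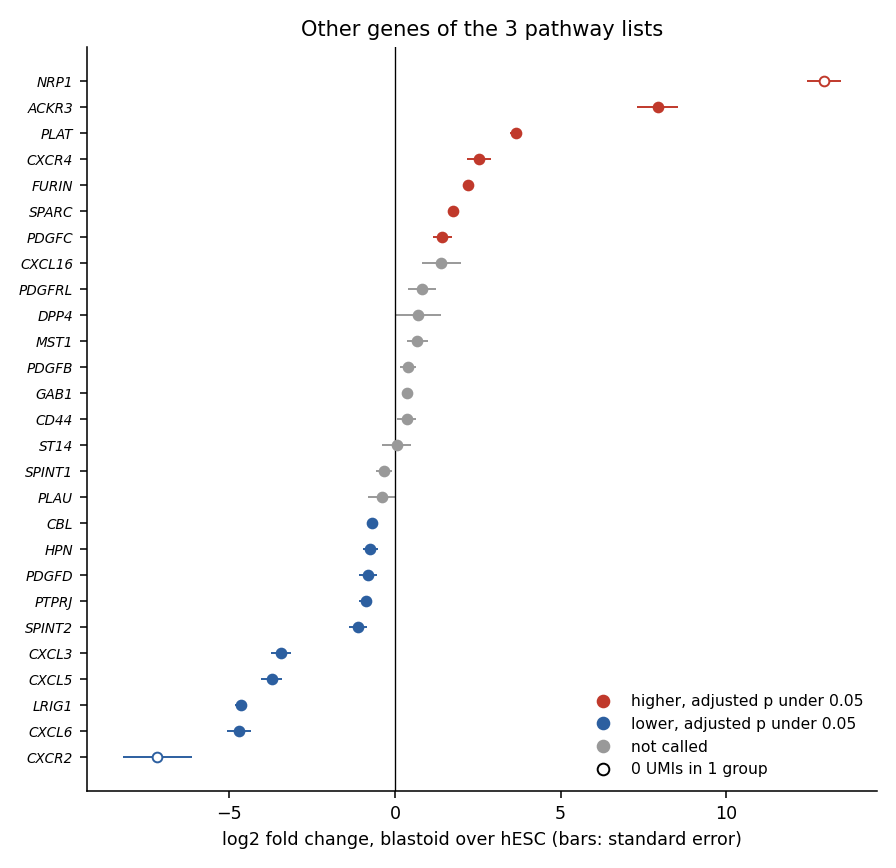
Log2 fold change of blastoid over hESC with its standard error for the 27 tested genes of the 3 lists other than the members, red for higher, blue for lower and grey for not called. Open symbols (NRP1 and CXCR2) have 0 UMIs in 1 group, so their position depends on the prior count, and NRP1, ACKR3 and PLAT lie at the top with LRIG1, CXCL6 and CXCR2 at the bottom.

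Patterns over cells were compared over 19 sums of a cluster and a sample with at least 20 cells each, as Pearson's r of log2(CPM + 1). These points share libraries and depth, so r is a description. Sums of hESC clusters are among them, and HGF had counts in only 11 of the 19 sums. The values of r therefore also carry the difference between hESC and blastoids. HGF went with PDGFRB (r = 0.87), PDGFRA (0.82) and CXCL14 (0.77) and against PDGFA (-0.92) and CXCL12 (-0.73), while with its receptor MET the correlation was weak (-0.35). CXCL12 went with PDGFA (0.79) and MET (0.67). Among genes outside the members with a mean of at least 10 CPM, those most like HGF were ZEB2 (0.973), HOXA13 (0.968) and ZFPM2 (0.961), all transcriptional regulators. Most like CXCL12 were CLDN6 (0.953), CLDN4 (0.915) and CDH1 (0.91), which build epithelial junctions, and most like PDGFA were MACC1 (0.955), SCNN1A (0.945) and ESRP1 (0.941). PDGFRA was closest to COL13A1 (0.967), SNAI2 (0.964) and GATA6-AS1 (0.961), and PDGFRB to COL5A1 (0.931), NID2 (0.93) and PDZRN3 (0.922). For MET they were PRRG4 (0.936), C1orf115 (0.888) and NMNAT2 (0.882), and for CXCL14 LRFN5 (0.932), TAX1BP1 (0.929) and NTRK2 (0.926).

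Leaving out the cells with a barcode of another sample kept every member's direction and call. The log2 fold changes were then 1.22 for MET, 8.32 for CXCL14, 0.68 for CXCL12, -1.89 for PDGFA, 4.99 for PDGFRA and 2.67 for PDGFRB (adjusted p from 1.83e-05 to 0.0396, edgeR), and HGF had 10.02 with an adjusted p of 0.000137. The classes leading in each blastoid sample were the same for 6 of the 7 members. For PDGFRB in blastoid 4 the pluripotent-like cells then had the highest level, from 3.03% of its UMIs.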

How the data were processed

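The authors deposited raw UMI counts in 1 table per sample (genes by barcodes), and Cell Ranger (version not given in the sources used here) and GRCh38 are named per the submitters' processing notes. The annotation used for counting and any filter on barcodes or genes are not given in the sources used here. A gene missing from a table was read as 0. Depth per sample was 14930662, 17716886, 15682286 and 18193164 UMIs for hESC 1, hESC 2, blastoid 3 and blastoid 4 before filtering.

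Kept cells had 500 or more genes and a mitochondrial share of 20% or less. Scrublet, run through scanpy 1.11.5 at an expected rate of 6%, marked 73 of 9680 barcodes (0.75%) as doublets, which were removed. That low share may leave doublets among the 9607 kept cells. Clusters came from 2000 variable genes without the members and pathway genes, 30 principal components, 15 neighbours and Leiden resolution 0.5 (leidenalg 0.10.2). Each cluster was named by whichever of 6 marker lists had the most genes detected in 10% or more of its cells (3 or more genes needed). A shallow cluster without markers of its class among its leading genes stayed unnamed. These names were rebuilt here and may differ from those of the study. Clustering used the same cells, so levels by class are descriptions with no test. The quasi-likelihood test of edgeR 4.0.16 was applied to sums of UMI counts per sample (TMM, filterByExpr, called at an adjusted p under 0.05). The SE of its log2 fold changes was derived from the F statistic, as the absolute log2 fold change over the square root of F. It is therefore approximate, above all for genes with few or no UMIs in a group. The alternatives were DESeq2 1.42.0, library size scaling, no filter, other sets of cells and leaving out each sample. The test was tried on simulated data in which far fewer genes changed than were called here. That trial therefore says nothing about error rates in this comparison. Shares of cells have exact Clopper-Pearson 95% intervals, and cells under 2000 UMIs were left out of thinned shares (435 and 973 of hESC 1 and hESC 2, 107 and 42 of blastoid 3 and blastoid 4).

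The members and lists were chosen with earlier results of these data known. Named genes are the members, the tested genes of the lists, the 3 genes most like each member and up to 5 leading genes of a cluster. The alternative of class levels without shared barcodes was added after seeing the data.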

Additional observations from a re-analysis of the deposited data

How the results depend on the processing

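Of the members, 6 kept direction and call under all 11 alternatives, and CXCL12 kept its direction in all 11 and its call in 5. Of the 7 members, 6 to 7 were called in each alternative, and all 7 kept their leading class under the 4 planned changes of clustering or cells. Leaving out 1 sample gave 4896 (without hESC 1) to 10157 (without blastoid 4) called genes against 8157, with 5114 without hESC 2, and 11 (without hESC 1) to 24 (without blastoid 4) called pathway genes against 17. The mean share of PDGFRA-positive cells with PDGFA was 2.609% at 4000 UMIs per cell against 0.744% at 2000. Cells without PDGFRA had PDGFA in 5.712% (blastoid 3) and 8.586% (blastoid 4) at 4000, against 2.814% and 4.162% at 2000. CXCL12's difference in share of cells was 0.7625 points at 2000 UMIs and -1.983 at 4000. A group left with 1 sample was assumed to vary like the other group. Scaling by library size alone moved the median over all tested genes from 0.05 to 0.18 (log2). Sharing of barcodes is uneven, so leaving those cells out removes the deeper cells of blastoid 4. Levels under about 3 UMIs per class are limited by depth. No paired analysis was possible because the groups share no replicate numbers.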
